A study of Homo sapiens with 12 samples.

Results

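The genes described here carry secreted and membrane proteins into the endoplasmic reticulum (ER), attach their sugars, fold them and watch over the process. They are 40 of the 60675 genes in the count tables, chosen by name for their known function, with earlier results of these data known. The list holds 33 genes of structural machinery: 7 oligosaccharyltransferase subunits, 10 translocon genes, 3 signal peptidase subunits, 6 chaperones and lectins, 4 disulfide isomerases and 3 J proteins. The other 7 are regulators, namely the stress sensors ATF6, ERN1 and EIF2AK3 with the transcription factor XBP1, and the ER-associated degradation genes HERPUD1, SEL1L and SYVN1.

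Human melanoma cells of 2 lines were compared. A375/211, here the MIR211 line, overexpresses the microRNA gene MIR211 and was derived from A375. It was set against A375 itself, a melanoma line with an activated BRAF gene. Total RNA was sequenced in libraries a and b of each line. In BRIC-seq, cells took up 5-bromouridine (BrU) for 24 h, and BrU-containing RNA was then pulled down at 0, 1, 3 and 6 h, with 1 library per line and time. Since 1 line stands for each condition, any other way in which the lines differ cannot be told apart from miR-211. Separate cultures are not mentioned in the labels, so the spread behind every p-value may be technical.

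A protein bound for the ER is threaded through the SEC61 channel, loses its signal peptide to signal peptidase, and receives a preassembled glycan from oligosaccharyltransferase (OST). Chaperones such as BiP (HSPA5) and GRP94 (HSP90B1), the lectins calnexin and calreticulin and the disulfide isomerases then fold it. When unfolded protein builds up, the sensors ATF6, IRE1 (ERN1) and PERK (EIF2AK3) start the unfolded protein response, in which XBP1 and cleaved ATF6 raise chaperone transcription through ER stress response elements, and proteins that fail to fold are sent back for degradation.

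RNA-seq libraries held 20847481 to 34130525 counts and BRIC-seq libraries 2671651 to 7279038. BRIC-seq counts grew with chase time, from 2783520 at 0 h to 6663297 at 6 h in the MIR211 line and from 2671651 to 7279038 in A375. TMM scaling factors fell meanwhile, from 1.346 to 0.615 in the MIR211 line and from 1.296 to 0.687 in A375. Depth and library composition thus changed together with time, and their part in the slopes was not tested. MIR211 had 36 and 18 counts in RNA-seq of the MIR211 line, against 0 and 0 in A375, and was likewise counted at every chase time of the MIR211 line and at none of A375. Mature miR-211 itself was not measured. Of 10 melanocyte and melanoma markers, 7 reached 1 CPM (counts scaled by library size) in all 4 RNA-seq libraries, and their summed level was 518 and 584 CPM in the MIR211 line, against 649 and 621 CPM in A375. The sum holds opposite differences, with MITF at 38.8 and 49.0 CPM in the MIR211 line, against 253 and 244 CPM in A375, and S100B at 94.6 and 100 CPM in the MIR211 line, against 32.6 and 29.0 CPM in A375. The melanocyte genes MLANA and TYR were nearly absent, at no more than 0.246 CPM. Fibroblast, keratinocyte and endothelial lists each summed to at most 61.3 CPM. The fibroblast sum also holds opposite differences, with COL1A2 at 0.236 and 0.518 CPM in the MIR211 line, against 17.2 and 51.0 CPM in A375. LUM had 12.3 and 11.9 CPM in the MIR211 line, against 4.28 and 5.53 CPM in A375, and PDGFRB and DCN were also higher in the MIR211 line. Leukocyte markers summed to at most 2.95 CPM with 3 of 4 at 0. Markers of antibody-secreting plasma cells, which are rich in these ER transcripts, summed to 9.99 to 29.4 CPM. Nearly all of that came from SDC1, at 17.7 and 29.4 CPM in the MIR211 line and 12.4 and 9.95 CPM in A375. JCHAIN was at 0, and MZB1 and IGKC were at most 0.0589 CPM. In bulk libraries, fewer cells of a type and less RNA per cell cannot be told apart.

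Over the chase, TMM-scaled labelled levels of the structural machinery mostly rose, while those of XBP1, EIF2AK3, HERPUD1 and the J protein DNAJB9 fell. The slope used here is the change in log2 labelled level per hour, fitted over both lines against TMM-scaled library sizes. A positive slope marks a transcript whose labelled level rose on that scale, which is not the same as its share of labelled counts. Slow decay was not measured apart from labelling or pull-down. Of the 40 genes, 39 had enough labelled counts to be tested, and SDF2L1, which sits in complex with ER J proteins, did not. By edgeR's quasi-likelihood test at an adjusted p under 0.05, 30 of the 39 rose, 4 fell and 5 were not called, where 29.9% of all 13703 genes tested rose and 34.4% fell. The median slope was 0.30 over the 39 genes and -0.04 over all genes. Among the 32 structural genes tested, 29 rose and 1 fell, and their median slope ranked at the 89.1 percentile of all genes. For the 7 regulators, 1 rose, 3 fell and the median ranked at the 45.3 percentile.

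The sign of a slope depends on what is taken as constant. If the mRNAs of 9 glycolytic enzymes are held constant instead, the median of all genes shifts by -0.46 per hour, to -0.49. Of the 30 rising genes 21 then take a negative slope, with 1 of the 39 (DDOST) called rising and 23 called falling. Of all 13703 genes, 11793 are called in either direction under this scaling. For this and the other alternatives, the calls over all genes were not split by direction. The rising and falling counts of the 39 genes therefore cannot be set against a share of all genes there. A rank among all genes hardly moves with a scaling, which shifts all genes alike. Over all alternatives, other filters and left-out libraries included, the median rank lay between the 87.5 and 92.5 percentile for structural genes and between the 40.3 and 58.9 percentile for regulators. The share of labelled counts from mitochondrially encoded genes grew from 18.1% at 0 h to 32.5% at 6 h in the MIR211 line and from 22.2% to 34.1% in A375. With library sizes taken without those genes, 26 of the 39 rose and 5 fell, with 9050 of all 13703 genes called in either direction. Total counts as library sizes give the slope of a gene's share of labelled counts. On that scale 23 of the 39 rose and 6 fell, with 9101 of all 13703 genes called in either direction.

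**Figure D1:**
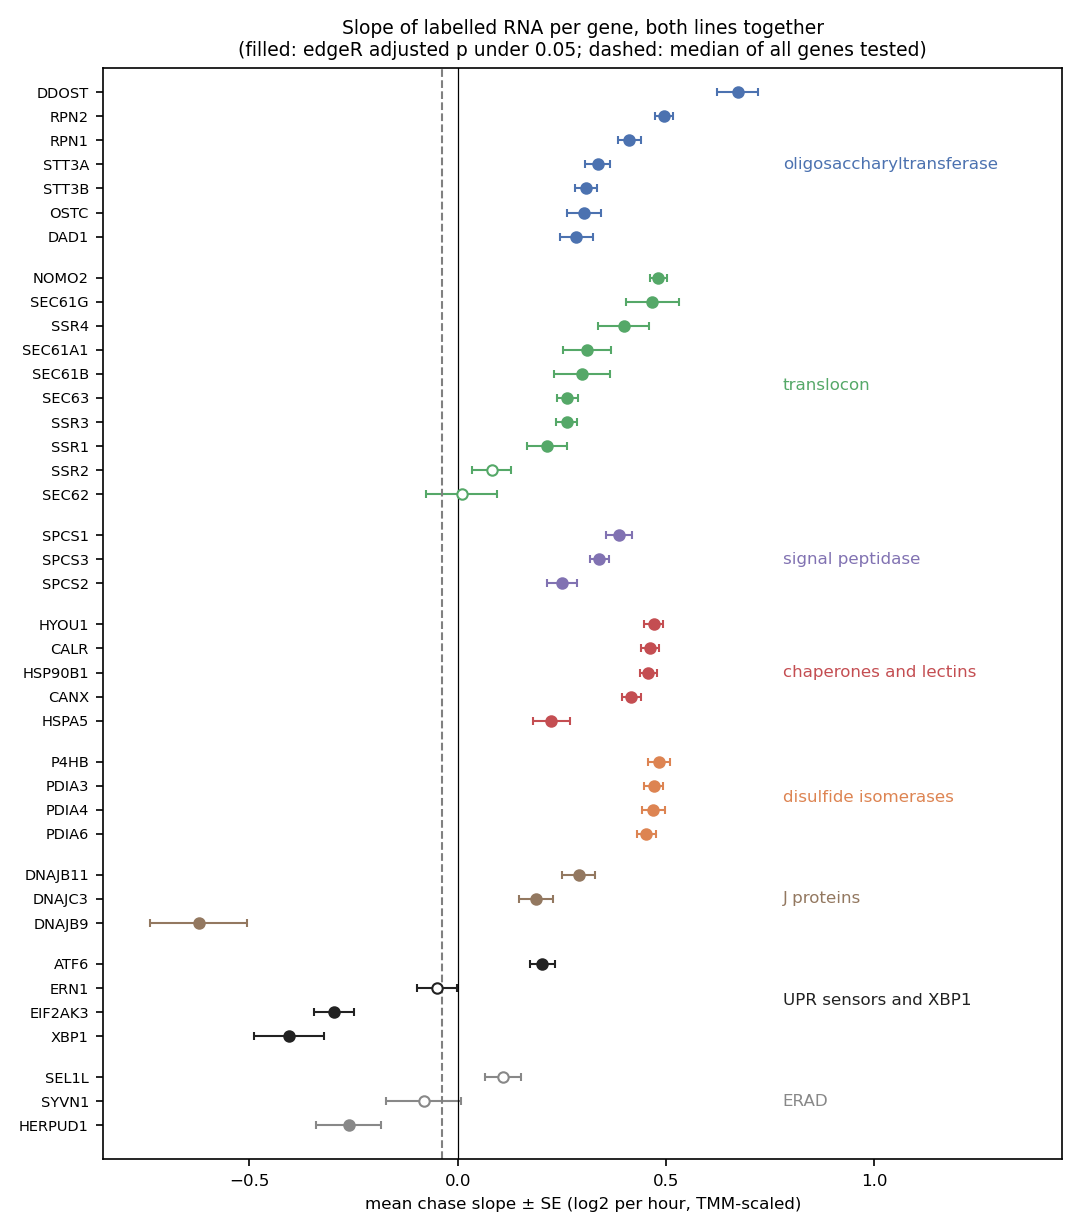
Mean chase slope with its standard error for 39 genes, grouped by role, in log2 units an hour under TMM scaling. Filled points passed the test, the dashed line is the median of all genes at -0.04, and structural genes lie mostly right of it under this scaling. With glycolytic mRNAs held constant 30 of the 39 lie below 0, and the median of all genes is -0.49.

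All 7 OST subunits rose, with slopes of 0.28 to 0.67; with glycolytic mRNAs constant, DDOST and RPN2 stayed above 0 and the other 5 went below. DDOST (ENSG00000244038, chr1:20651767-20661544, minus strand, hg38), which encodes the OST48 subunit, had the steepest slope of the 39 genes. Its labelled level was 31.0, 28.9, 137 and 415 CPM at 0, 1, 3 and 6 h in the MIR211 line, against 22.1, 24.3, 95.6 and 302 CPM in A375. Both lines were flat over the first hour and then climbed. On TMM-scaled sizes the 6 h level was 13.4 times the 0 h level in the MIR211 line and 13.7 times in A375. The slope was 0.67 ± 0.05 per hour (SE, adjusted p = 1.36e-05 by edgeR), at the 99.9 percentile of all genes. RPN2, a ribophorin that braces the complex, followed at 113, 175, 311 and 972 CPM in the MIR211 line and 122, 154, 299 and 892 CPM in A375, a slope of 0.50 ± 0.02. The paralogous catalytic subunits had lower slopes, 0.34 ± 0.03 for STT3A, which works at the translocon, and 0.31 ± 0.03 for STT3B, which acts on sites missed there. RPN1 had 0.41, OSTC 0.30 and DAD1 0.28.

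Of 10 translocon genes 8 rose and SEC62 and SSR2 were not called; with glycolytic mRNAs constant only NOMO2 and SEC61G stayed above 0. The 3 subunits of the SEC61 channel had slopes of 0.47 (SEC61G), 0.31 (SEC61A1) and 0.30 (SEC61B). NOMO2, a translocon-associated protein, had 0.48 ± 0.02, but it has near-identical copies in NOMO1 and NOMO3, which carried slopes of 0.48 and 0.46, and reads could be split among them. Of the TRAP subunits, which help some proteins enter the channel, SSR4 had 0.40, SSR3 0.26 and SSR1 0.21, while SSR2 had 0.08 ± 0.05 (adjusted p = 0.148 by edgeR). SEC62, which together with SEC63 feeds proteins to the channel after translation, showed no such climb. It had 23.4, 90.8, 51.2 and 65.9 CPM in the MIR211 line, against 67.1, 76.7, 89.1 and 52.2 CPM in A375. The highest time was 1 h in the MIR211 line and 3 h in A375. Its slope was 0.01 ± 0.08, whereas its partner SEC63 had 0.26 ± 0.03. Signal peptidase subunits all rose (SPCS1 0.39, SPCS3 0.34, SPCS2 0.25), and all went below 0 with glycolytic mRNAs constant. Counts of the pseudogene SPCS2P4 came to 59.0% of those of SPCS2 in RNA-seq and 33% in BRIC-seq, so the values of SPCS2 are uncertain.

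The 4 disulfide isomerases, which form and reshuffle disulfide bonds, had slopes between 0.45 and 0.48 (PDIA3, PDIA4, PDIA6 and P4HB), with PDIA6 just below 0 when glycolytic mRNAs were held constant. PDIA4 rose through 24.2, 31.7, 67.9 and 183 CPM in the MIR211 line and 25.9, 38.7, 67.7 and 171 CPM in A375. The MIR211 line was below A375 at 0 and 1 h and above it at 3 and 6 h. The pseudogene PDIA3P1 held counts worth 14.7% of those of PDIA3 in RNA-seq and 16.8% in BRIC-seq. Close to the isomerases came HYOU1 (GRP170, a nucleotide exchange factor of BiP) at 0.47, calreticulin (CALR) at 0.46, HSP90B1 at 0.46 and calnexin (CANX) at 0.42. BiP, encoded by HSPA5, was slower at 0.22 ± 0.04. Its labelled level was 331, 435, 707 and 744 CPM in the MIR211 line and 253, 408, 698 and 783 CPM in A375, with most of the gain made by 3 h. With glycolytic mRNAs constant, HYOU1 and CALR stayed above 0 and HSP90B1, CANX and HSPA5 went below.

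The J proteins, which hand clients to BiP, were split. DNAJB11 rose at 0.29 ± 0.04 and DNAJC3 at 0.19 ± 0.04, both below 0 with glycolytic mRNAs constant. DNAJB9 (ERdj4) fell, at -0.62 ± 0.12 (adjusted p = 0.00174 by edgeR, the 4.12 percentile). It was counted 25, 14, 9 and 1 times in the MIR211 line and 22, 27, 5 and 5 times in A375, so its slope rests on few counts.

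Of the regulators, 3 fell. Their sign and that of DNAJB9 held under the scalings tried, but those shift all slopes downward, or upward by at most 0.03, and so could hardly turn it. XBP1 had 12.8, 10.9, 2.41 and 3.19 CPM in the MIR211 line, against 10.3, 11.2, 3.59 and 2.21 CPM in A375. In both lines the largest drop came between 1 h and 3 h, and the slope was -0.40 ± 0.08 (adjusted p = 0.00294 by edgeR) on 11 to 55 counts per library. Gene counts do not separate its spliced and unspliced forms. EIF2AK3, the PERK kinase, stood at 20.9, 17.7, 9.83 and 4.41 CPM in the MIR211 line and 28.6, 25.6, 15 and 11.5 CPM in A375. It declined at each step in both lines, with a slope of -0.30 ± 0.05 (adjusted p = 8.04e-04). HERPUD1, which organises the degradation complex, had 17.1, 9.12, 4.14 and 3.19 CPM in the MIR211 line, against 11.2, 7.19, 8.69 and 5.63 CPM in A375, a slope of -0.26 ± 0.08 (adjusted p = 0.0155), on 13 to 63 counts. By line, it was called in the MIR211 line (-0.40, adjusted p = 0.0132 by edgeR) and not in A375 (-0.13, adjusted p = 0.265). Its call was lost without the 6 h library of the MIR211 line, at -0.21. ATF6 rose instead, at 0.20 ± 0.03, with 120 CPM at 0 h and 302 CPM at 6 h in the MIR211 line and 124 and 251 CPM in A375, and went below 0 with glycolytic mRNAs constant. ERN1 (-0.05 ± 0.05), the ubiquitin ligase SYVN1 (-0.08 ± 0.09) and its adaptor SEL1L (0.11 ± 0.04, adjusted p = 0.0544) were not called.

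**Figure D2:**
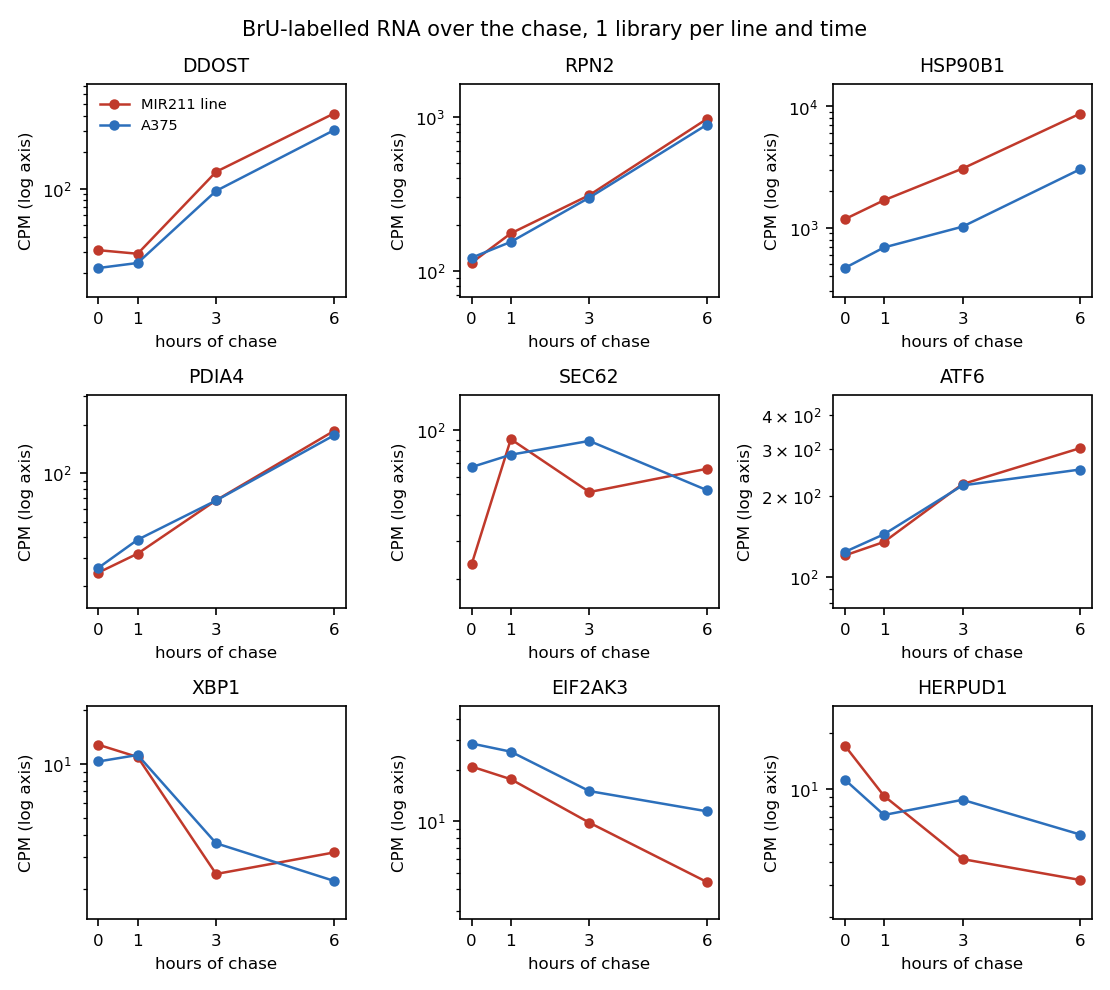
Level of BrU-labelled RNA in CPM on a log axis against hours of chase for 9 genes, with 1 library per point, the MIR211 line in red and A375 in blue. DDOST, RPN2, HSP90B1, PDIA4 and ATF6 climb under TMM scaling (HSP90B1 and ATF6 not when glycolytic mRNAs are held constant), XBP1, EIF2AK3 and HERPUD1 descend, and HSP90B1 of the MIR211 line lies above A375 at all 4 times.

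The steps of the chase were compared next. Among the 32 structural genes, the median log2 change was 0.31 from 0 to 1 h, 0.86 from 1 to 3 h and 1.27 from 3 to 6 h in the MIR211 line, and 0.17, 0.83 and 1.17 in A375, while the median of all genes lay between -0.04 and 0.04 at each of these steps. The steps last 1, 2 and 3 h, so the structural median came to 0.31, 0.43 and 0.42 per hour in the MIR211 line and 0.17, 0.42 and 0.39 per hour in A375, lowest in the first hour and about level after it. The 6 h library was the highest of the 4 for 32 of the 40 genes in the MIR211 line and 31 in A375. Both counts include SDF2L1, which was not tested, and the share over all genes was not computed. Leaving out both 6 h libraries left 24 of the 39 genes rising and 3 falling, with 5197 of 13608 genes called in either direction.

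Fitted by line, 30 of 39 genes rose and 4 fell in the MIR211 line (21.9% and 21% of all genes), and 28 rose and 3 fell in A375 (23% and 24.2%). With library totals in place of TMM, 17 rose in the MIR211 line and 15 in A375, and with glycolytic mRNAs constant 1 and 0. Of all 13703 genes, 6712 and 6699 were called in either direction with library totals, and 10377 and 10409 with glycolytic mRNAs constant. Over the 39 genes the slopes of both lines had a Pearson r of 0.96 and a Spearman rho of 0.95, against 0.80 and 0.89 over all genes, given as a description, since genes share libraries and are not independent. No gene of the 39 passed the test of the slope difference, nor did any of the 13703 genes (0% called by edgeR). Unadjusted p was under 0.05 for SEL1L and DNAJC3 and for 527 of all genes, and DESeq2 also called none of the 39, though it called 14 genes in all. SEL1L had a slope of 0.19 in the MIR211 line and 0.02 in A375 (difference 0.18 ± 0.07), and DNAJC3 0.27 and 0.10 (difference 0.17 ± 0.07). The next smallest p belonged to HERPUD1 (-0.28 ± 0.13), STT3A (0.11 ± 0.05) and EIF2AK3 (-0.15 ± 0.08), while DDOST (0.01 ± 0.11), HSPA5 (-0.06 ± 0.09) and XBP1 (0.04 ± 0.18) differed by less than their standard errors. Without its own 6 h library, neither line had any gene called for its slope.

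Labelled RNA at 0 h was also set against total RNA. On a log2 scale where the median of 12677 genes is 0, structural transcripts had a median labelled-to-total ratio of -1.09 in the MIR211 line and -1.38 in A375, and regulators 0.22 in the MIR211 line and 0.23 in A375. PDIA4 stood at -4.38 in the MIR211 line and -4.46 in A375, SSR4 at -3.56 and -3.82, and DDOST at -3.29 and -3.94. SEC63 (1.87 and 1.71) and SSR1 (1.69 and 1.7) lay at the other end. To avoid a shared library, the ratio of one line was set against the slope of the other: Spearman rho over the 39 genes was -0.52 both ways (Pearson r -0.32 and -0.24), and over 12677 genes -0.43 and -0.45. Genes with a low ratio of labelled to total RNA at 0 h thus tended to have the higher slopes, as a description across genes. Higher total RNA per kilobase of exon went with a higher mean slope, with a rho of 0.66 (r 0.60) over 39 genes. Total RNA is also the denominator of the ratio, so these descriptions are not separate. The value over all genes was not computed.

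At matched chase times, 11 of the 39 genes were higher in the MIR211 line than in A375 and 1 was lower, where 13.6% of all genes were higher and 12.3% lower. The higher genes were 5 of 7 OST subunits, the chaperones HSP90B1 and CANX, the isomerases PDIA3 and P4HB, the signal peptidase subunit SPCS3 and the degradation adaptor SEL1L. None of the 10 translocon genes was called. With glycolytic mRNAs constant the median of all genes shifts by -0.40, to -0.44, and 5842 of all 13703 genes are called in either direction. Of the 39, HSP90B1 alone stays called higher, 11 are called lower, and RPN1 changes sign.

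HSP90B1 (ENSG00000166598, chr12:103930107-103953931, plus strand, hg38), the ER form of HSP90, showed the widest gap. Its labelled level was 1177, 1687, 3076 and 8736 CPM at 0, 1, 3 and 6 h in the MIR211 line, against 466, 688, 1021 and 3039 CPM in A375. The MIR211 line was higher at each of the 4 times, by a log2 difference of 1.44 ± 0.07 (SE, adjusted p = 1.52e-04 by edgeR), and the difference stayed between 1.39 and 1.50 whichever library was left out. Its slopes were 0.48 in the MIR211 line and 0.44 in A375, a difference of 0.04 ± 0.04. In total RNA the same gene had 2556 and 1249 CPM in the MIR211 line and 2887 and 1252 CPM in A375, a log2 difference of -0.12 ± 0.53. The pseudogene HSP90B2P held counts equal to 0.962% of those of HSP90B1 in RNA-seq and 1.93% in BRIC-seq.

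CANX had 602, 814, 1554 and 3806 CPM in the MIR211 line, against 441, 540, 804 and 2230 CPM in A375, a log2 difference of 0.69 ± 0.09 (adjusted p = 0.00392 by edgeR). PDIA3 (0.58 ± 0.08), STT3B (0.57 ± 0.09) and SPCS3 (0.49 ± 0.07) were also higher at all 4 times, and these 3 genes, HSP90B1 and CANX kept their calls whichever library was left out. P4HB (0.47), DDOST (0.44), STT3A (0.62), SEL1L (0.87), RPN1 (0.34) and OSTC (0.44) lost theirs in 1 to 8 of the 8 such fits, and the count of higher genes went down to 5 without the 3 h library of the MIR211 line and to 7 without its 1 h library or without the 1 h or 3 h library of A375. SEL1L drew apart with time, with 92.4, 134, 189 and 221 CPM in the MIR211 line and 76.3, 82.0, 91.9 and 82.8 CPM in A375. EIF2AK3 was lower, by -0.70 ± 0.19 (adjusted p = 0.0401), with the MIR211 line below A375 at every time, but its call was lost whichever library was left out. BiP (0.10 ± 0.09), XBP1 (0.04 ± 0.23) and HERPUD1 (-0.17 ± 0.33) were not called. Total RNA of the 11 higher genes differed by -0.29 to 0.12, and that of EIF2AK3 by -0.27. The labelled and total RNA tables were scaled separately, and the gap between them was not tested.

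**Figure D3:**
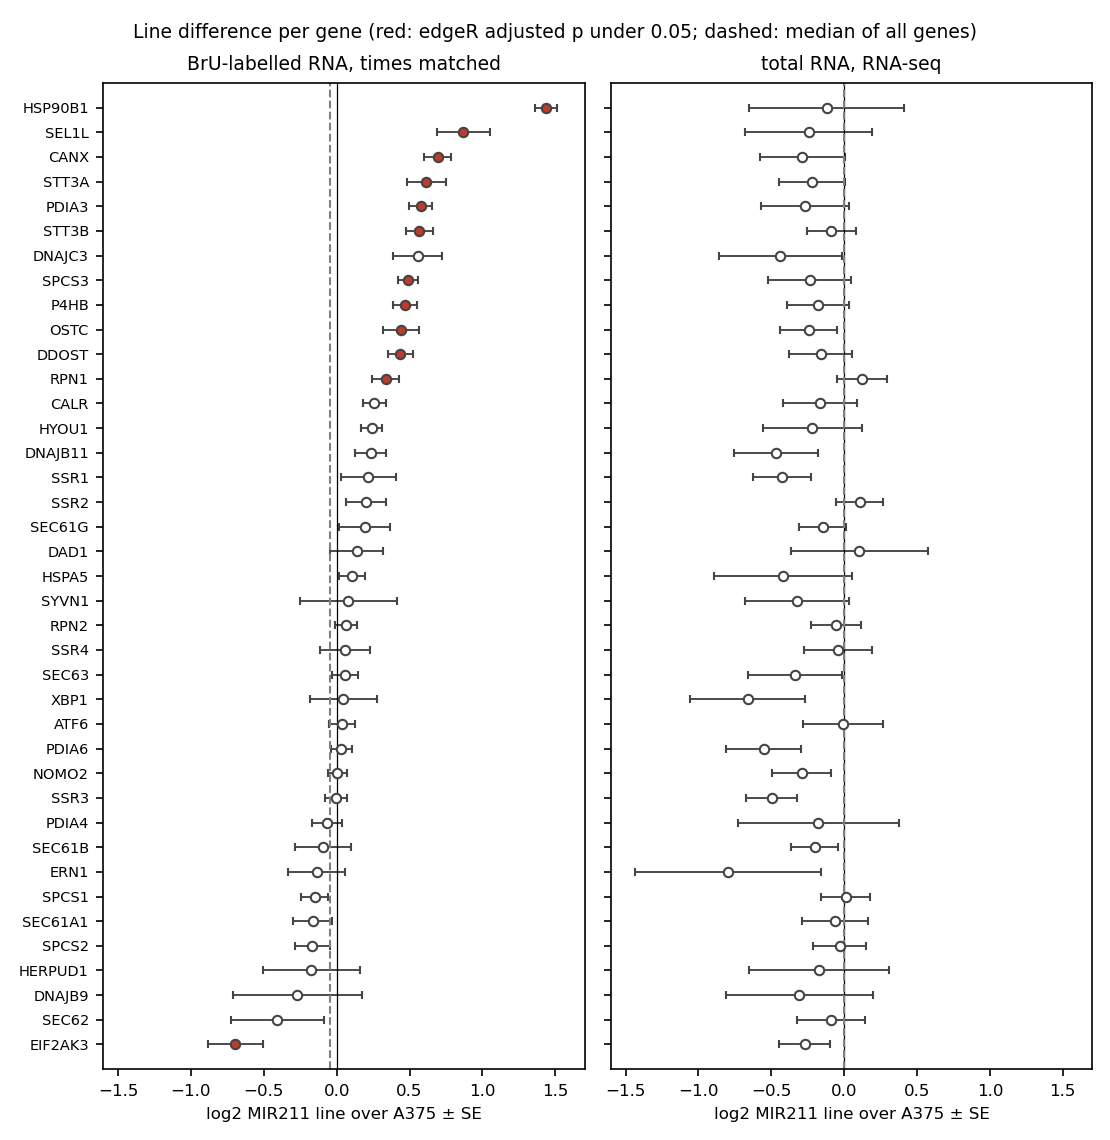
Log2 difference of the MIR211 line over A375 with its standard error for 39 genes, in BrU-labelled RNA with times matched on the left and in total RNA on the right. Red points passed the test and dashed lines are the medians of all genes: 11 genes are called higher and EIF2AK3 lower in labelled RNA under TMM scaling (HSP90B1 alone higher with glycolytic mRNAs constant), and none is called in total RNA.

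The sequence that miR-211 pairs with was looked up in the annotated 3′ UTRs. The mature microRNA, from RefSeq (GRCh38.p14, chr15:31065095-31065116, minus strand), is shown to give the seed, bases 2 to 8, in capitals.
hsa-miR-211-5p: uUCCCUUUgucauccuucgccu
The match to that seed, AAAGGGA, occurs in the 3′ UTR of 8 of the 40 genes (20%), against 17.3% of 19538 protein-coding genes in GENCODE 44. They are ATF6, EIF2AK3, P4HB, SEC61A1, SEL1L, SPCS1, SPCS3 and SSR3. The windows of the 5 that were called between the lines in labelled RNA, or had the smallest p in total RNA, are printed with the match in capitals and the place of its first base in the 3′ UTR.
EIF2AK3, chromosome 2, 3′ UTR base 621: ttacctccaatAAAGGGAaaatgaagctt
SEL1L, chromosome 14, 3′ UTR base 578: ttgttattttaAAAGGGAgggttgggagg
SPCS3, chromosome 4, 3′ UTR base 157: aaggcctgtttAAAGGGAaaggttaatgg
P4HB, chromosome 17, 3′ UTR base 197: tcggtttttggAAAGGGAtccatctccag
SSR3, chromosome 3, 3′ UTR base 191: taaatgaattgAAAGGGAaactcagagta
Of the 8 genes, EIF2AK3 was called lower in labelled RNA of the MIR211 line, SEL1L, SPCS3 and P4HB higher, and the other 4 were not called. A match of these letters is not by itself a binding site.

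In total RNA none of the 40 genes passed the test between the lines, where 0.379% of 19258 genes did (73 genes). Unadjusted p was under 0.05 for 1 of them, SSR3, and for 2107 of all genes, and DESeq2 called none of the 40 while it called 748 genes in all. SSR3, the gamma subunit of TRAP, had 139 and 154 CPM in the MIR211 line, against 221 and 193 CPM in A375. Both libraries of the MIR211 line lay below both of A375, and the log2 difference was -0.50 ± 0.18 (unadjusted p = 0.0388, adjusted p = 0.413 by edgeR). PDIA6 had 561 and 426 CPM in the MIR211 line, against 841 and 606 CPM in A375, a difference of -0.55 ± 0.26 (adjusted p = 0.539). The next smallest p belonged to SSR1 (-0.42), SDF2L1 (-0.35), XBP1 (-0.66), DNAJB11 (-0.47), EIF2AK3 (-0.27) and NOMO2 (-0.29). XBP1 had 109 and 51.5 CPM in the MIR211 line and 143 and 112 CPM in A375, and EIF2AK3 25.4 and 27.6 CPM in the MIR211 line and 33.6 and 30.4 CPM in A375. DDOST (-0.16 ± 0.22), HSPA5 (-0.42 ± 0.47) and HERPUD1 (-0.17 ± 0.48) differed by less than their standard errors. Of the 40 log2 differences 36 were below 0, as were 9710 of all 19258 genes. The median was -0.22 against -0.00346 over all genes. Library a of A375 weighed on that balance: without it, only 14 of the 40 were below 0, where the median of all genes was 0.011. That fit set libraries a and b of the MIR211 line against library b of A375. With the letter a or b as a term in the fit of all 4 libraries, 35 of the 40 were below 0, though the labels do not say that letters pair libraries.

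Levels within a complex were compared per kilobase of exon, since longer transcripts collect more reads. Among OST subunits, DDOST had 147 CPM per kb in the MIR211 line and 164 in A375, RPN2 134 and 140, and RPN1 108 and 98.9, while the catalytic subunits STT3B (48.0 and 51.0) and STT3A (30.0 and 34.9) were lower. Calreticulin was the most abundant of the 40 per kilobase, at 316 CPM per kb in the MIR211 line and 355 in A375, ahead of PDIA4 (201 and 227). The sensors IRE1 and PERK were the scarcest, with ERN1 at 0.336 CPM per kb in the MIR211 line and 0.586 in A375 and EIF2AK3 at 1.28 and 1.55. The exon length counts every annotated isoform, so these levels are approximate.

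Libraries a and b of the same line also differed for these genes. Library a was above library b in both lines for 28 of the 40 genes (70%) and for 34.1% of all genes. The median log2 difference, a over b, was 0.28 in the MIR211 line and 0.41 in A375, against 0.00104 and 0.0194 over all genes. A difference above 0.5 in both lines was seen for 9 of the 40 genes (22.5%) and for 5.95% of all genes. PDIA4 had 924 and 400 CPM in libraries a and b of the MIR211 line and 1030 and 468 CPM in A375. HSP90B1 was the only other gene with a log2 difference above 1 in both lines (1.03 in the MIR211 line and 1.21 in A375). BiP had 539 and 309 CPM in the MIR211 line and 783 and 353 CPM in A375. DNAJC3, SYVN1, PDIA3, ERN1, DNAJB9 and HERPUD1 made up the rest of the 9. Group medians in the MIR211 line and A375 were 0.68 and 0.74 for the degradation genes and 0.66 and 0.99 for the J proteins. The labels do not say what the letters stand for. OST subunits were steadier, with median differences of 0.14 in the MIR211 line and 0.33 in A375, although DAD1 ran at -1.06 in the MIR211 line and 0.90 in A375.

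**Figure D4:**
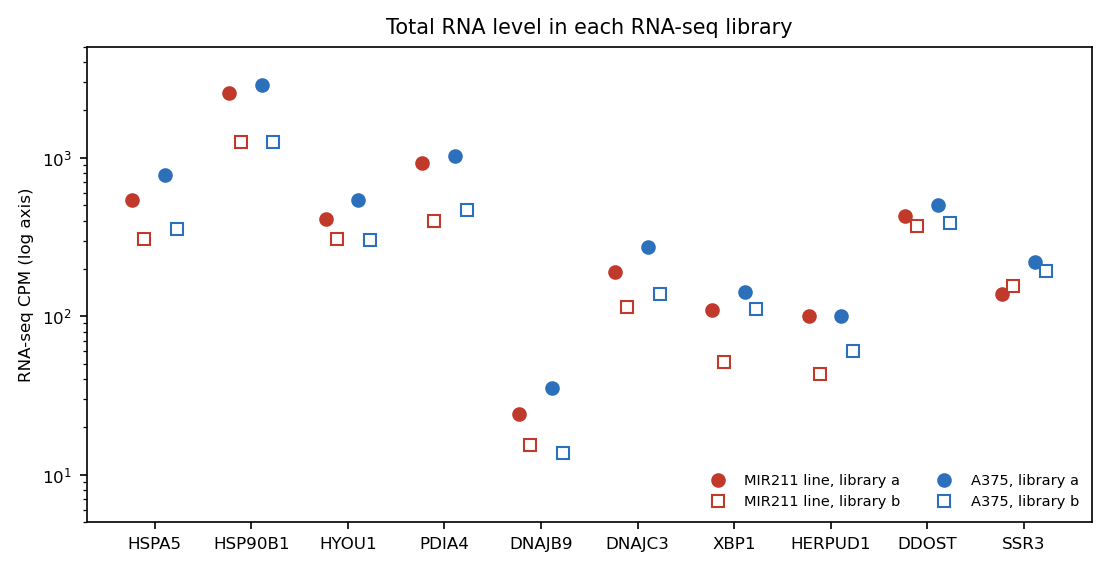
RNA-seq level in CPM on a log axis of 10 genes in each of the 4 libraries, with the MIR211 line in red left of A375 in blue, library a filled and library b open. Library a lies above library b in both lines for all of these genes except SSR3 of the MIR211 line, and the ranges of the lines overlap for all but SSR3 and XBP1.

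Promoters were searched for the ER stress response elements, with 36 of the 40 genes matched to a RefSeq window (GRCh38.p14) of 250 bases before to 50 after an annotated start. For 8 of the 36 there are several annotated starts, up to 4, and all were searched. The matches of CANX, PDIA6 and HSP90B1 lie near starts inside the span of the gene in GENCODE, though HSP90B1 has only 1 window. ERSE was taken as CCAAT, any 9 bases and CCACG, and ERSE-II as ATTGG, any 1 base and CCACG, on both strands, with no overlap between them. ERSE was found in 6 of the 36 genes, against 25 of 27305 genes with a window (0.0916%), and ERSE-II in 3, against 19 (0.0696%). The list was chosen for known ER function, and ER chaperone genes are known to be raised through these elements. The excess is therefore not an independent result. The matches are printed in the 5′ to 3′ direction of the gene's strand with the motif in capitals, since these elements are the ones through which the unfolded protein response is known to work. CGTGG at the start of the capitals marks a motif on the opposite strand.
HSPA5, chr9:125241391-125241409, minus strand, ERSE: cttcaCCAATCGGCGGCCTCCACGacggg
HSP90B1, chr12:103930216-103930234, plus strand, ERSE: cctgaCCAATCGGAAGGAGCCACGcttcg
HSP90B1, chr12:103930321-103930339, plus strand, ERSE: gggtgCGTGGTGCGGCGCGATTGGtgggt
CALR, chr19:12938384-12938402, plus strand, ERSE: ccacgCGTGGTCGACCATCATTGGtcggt
CANX, chr5:179698778-179698796, plus strand, ERSE: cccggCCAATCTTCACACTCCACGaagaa
PDIA6, chr2:10812853-10812871, minus strand, ERSE: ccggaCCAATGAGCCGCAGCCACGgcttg
XBP1, chr22:28800603-28800621, minus strand, ERSE: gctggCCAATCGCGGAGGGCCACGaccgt
HERPUD1, chr16:56932025-56932035, plus strand, ERSE-II: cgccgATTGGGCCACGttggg
HYOU1, chr11:119057380-119057390, minus strand, ERSE-II: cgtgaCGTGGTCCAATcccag
HYOU1, chr11:119057274-119057284, minus strand, ERSE-II: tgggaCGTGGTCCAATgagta
SDF2L1, chr22:21642114-21642124, plus strand, ERSE-II: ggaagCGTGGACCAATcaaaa
Of these 9 genes, 8 were higher in library a than in library b in both lines, as were 70% of the 40 genes and 34.1% of all genes, and SDF2L1 was not in A375 (-0.08). Over the chase the same 9 went different ways: HSPA5, HSP90B1, CALR, CANX, PDIA6 and HYOU1 rose under TMM scaling (HSPA5, HSP90B1, CANX and PDIA6 below 0 with glycolytic mRNAs constant), XBP1 and HERPUD1 fell, and SDF2L1 was not tested.

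The 3′ UTRs were also searched for the AU-rich pentamer ATTTA, which is found in many short-lived mRNAs. All 7 regulators had at least 1, as did 24 of 33 structural genes (72.7%) and 67.5% of 19538 protein-coding genes. DDOST, RPN1, OSTC, CALR, P4HB, SEC61G, SSR2, SSR4 and SDF2L1 had none, while DNAJB9 had 8. Genes that rose could carry many as well, with 16 in SPCS3 and 13 in SEC63. Over 39 genes the number of pentamers and the mean slope had a Spearman rho of -0.45 (Pearson r -0.24), and over 10782 genes a rho of -0.30 (r -0.21), as a description across genes that share libraries. Longer UTRs hold more pentamers: per kilobase of UTR, rho was -0.23 over the 39 genes and -0.20 over all, and for UTR length alone -0.40 and -0.27.

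A list of 83 other ER genes served as a wider view. Of 80 measured over the chase, 51 rose (63.8%, against 29.9% of all genes) and 13 fell (16.2%, against 34.4%), with a median slope of 0.21. All genes called among the other OST subunits (4 of 5) and among the folding and redox genes (14 of 17) rose. Among the other degradation genes 4 of 12 rose and 4 fell, and among the other genes of the unfolded protein response 3 of 9 rose and 5 fell. The smallest p among rising genes belonged to NOMO3 (0.46), NOMO1 (0.48), the glucosidase subunit GANAB (0.45) and the channel partner TRAM1 (0.41), and among falling genes to the phosphatase subunit PPP1R15B (-0.74), DERL2 (-0.35), HERPUD2 (-0.44) and SRP19 (-0.29). At matched times, 12 of the 80 were higher in the MIR211 line (15%) and 2 lower (2.5%), near the 13.6% of all genes called higher and under the 12.3% called lower. The smallest p among the higher genes belonged to the lectin OS9 (log2 difference 1.66), EDEM3 (1.14), UBE2J1 (0.77) and SRPRA (0.56), while the largest difference was that of PPP1R15A (1.67). The oxidase ERO1B (-1.0) and SRP68 (-0.40) were lower. With glycolytic mRNAs constant these slopes and line differences shift with the medians given above.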

How the data were processed

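Whole-number gene counts, not normalized, were deposited by the authors in 2 tables, for 4 RNA-seq and 8 BRIC-seq libraries. A stranded total RNA kit was used, per the labels' protocols. The submitters' processing notes name HISAT2 2.1.0, StringTie and hg19. Because the design text instead names hg38, the tables were used by gene ID alone, and printed positions of genes come from GENCODE 44 (hg38), which listed 56558 of the 60675 IDs. Strand setting and multi-mapping: not given in the sources used here. In BRIC-seq, 1 entry naming no gene (0.000108% to 0.00122% of counts) stayed out of library sizes and tests.

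Tests ran over all genes with edgeR 4.0.16 in R 4.3.3 (quasi-likelihood F test, TMM scaling, filterByExpr by line with a minimum count of 10 and total of 15), with Benjamini-Hochberg adjustment and a threshold of 0.05. RNA-seq was fitted by line (2 residual degrees of freedom). The mean slope had terms for hours and line (5). Slopes per line had their own intercepts (4). The line difference in labelled RNA had time as a factor (3), so times stand in for replicates. Each standard error is the log2 value's size over the root of F. CPM use TMM-scaled library sizes. Ratios of library a to b and of labelled to total RNA used a pseudocount of 0.1 CPM. DESeq2 1.42.0, other scalings and filters and left-out libraries were alternatives. The main edgeR fits were also run on simulated data, and the alternatives were not.

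Motifs were searched in RefSeq promoter windows and in 3′ UTRs of GENCODE canonical transcripts. The 40 genes, their groups and the list of 83 other ER genes were chosen with earlier results of these data known. Named genes are all 40 for the mean slope. For the other comparisons they are those past the threshold, the 8 (total RNA) or 5 (labelled RNA) with the smallest p, and DDOST, HSPA5, XBP1 and HERPUD1, with up to 4 per direction from the other list. Genes named for a level, a motif or a ratio of libraries were chosen after their values were seen.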

Additional observations from a re-analysis of the deposited data

How the results depend on the processing

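Of 230 counts of called genes recomputed under the alternatives, 177 stayed within 1.5 times their value. Of 1151 single-gene values 71 changed sign, 84 lost a call and 10 gained one. A change of scaling moves every gene by about the same amount: relative to TMM, the median of all genes moved by -0.46 (mean slope) and -0.40 (line difference in labelled RNA) with glycolytic mRNAs constant, and by -0.16 and -0.10 with total counts. For the other changes the cause was not tested. Few counts limit XBP1, HERPUD1 and DNAJB9.

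With glycolytic mRNAs constant, 1 of the 39 genes was called rising and 23 falling for the mean slope, 12 were called for the slope of the MIR211 line (1 rising, 11 falling) and 18 for that of A375 (0 rising, 18 falling), and 1 was higher and 11 lower at matched times. In the same order, 11793, 10377, 10409 and 5842 of all 13703 genes were then called in either direction. With total counts, 21 were called for the slope of the MIR211 line (17 rising) and 20 for that of A375 (15 rising, 5 falling). Without the count filter, 1 fell in A375 and 0 were lower at matched times. Without both 0 h libraries, 2 fell for the mean slope, 1 in the MIR211 line and 0 in A375, and 0 were lower at matched times. Without both 6 h libraries, 0 were called for the slope of either line, rising or falling, and 0 were lower at matched times. Leaving out 1 library at a time, the genes called ranged from 0 to 34 for the slope of the MIR211 line (0 to 31 rising, 0 to 4 falling) and from 0 to 33 for that of A375 (0 to 30 rising, 0 to 3 falling), with 0 where the line's own 6 h library was left out. At matched times 5 to 11 were called, 5 to 11 higher and 0 lower.

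The mean slope changed sign with glycolytic mRNAs constant for HSP90B1 (-0.000455), PDIA6 (-0.00241), CANX (-0.0395), RPN1 (-0.0429), SPCS3 (-0.118), SPCS1 (-0.0662), STT3B (-0.151), STT3A (-0.119), SSR3 (-0.196), SEC63 (-0.193), OSTC (-0.151), DNAJB11 (-0.165), DAD1 (-0.171), ATF6 (-0.253), SPCS2 (-0.204), SSR4 (-0.0577), SEC61A1 (-0.138), HSPA5 (-0.234), DNAJC3 (-0.271), SEC61B (-0.154), SSR1 (-0.24), SEL1L (-0.35), SSR2 (-0.369) and SEC62 (-0.456). With total counts it changed sign for SEL1L (-0.055), SSR2 (-0.0827) and SEC62 (-0.151), and with totals without mitochondrial genes for SEL1L (-0.0114), SSR2 (-0.039) and SEC62 (-0.108). SEC62 was at -0.12 without both 0 h libraries, and SYVN1 at 0.106 without both 6 h libraries. Leaving out 1 library, SEC62 ranged from -0.0709 to 0.0959 and SYVN1 from -0.129 to 0.00528.

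The slope difference of DDOST was below 0 without the count filter (-0.0105), with total counts (-0.023), with totals without mitochondrial genes (-0.0187) and without both 6 h libraries (-0.0202), and that of XBP1 without both 6 h libraries (-0.312). Leaving out 1 library, it ranged from -0.0794 to 0.068 for DDOST, from -0.285 to 0.0582 for HSPA5 and from -0.45 to 0.16 for XBP1.

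At matched times, RPN1 was at -0.0591, HSPA5 at -0.292 and XBP1 at -0.36 with glycolytic mRNAs constant. HSPA5 was at -0.000949 and XBP1 at -0.0438 with total counts, and at -0.0312 and -0.0753 with totals without mitochondrial genes. XBP1 was at -0.0172 without both 0 h libraries and -0.0156 without both 6 h libraries, where HERPUD1 was at 0.0197. Leaving out 1 library, XBP1 ranged from -0.0612 to 0.294 and HERPUD1 from -0.477 to 0.208.

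In total RNA, leaving out 1 library called 0 of the 40 genes each time, and 0 to 15 of all genes. DDOST then ranged from -0.343 to 0.0457, HSPA5 from -0.881 to 0.259 and HERPUD1 from -0.895 to 0.313. With the letter as a replicate block, 0 of the 40 genes and 192 of all genes were called, against 73 without it, and 35 of the 40 log2 differences were below 0. The deviations of library a from its line's mean had a Pearson r of 0.302 and a Spearman rho of 0.477 between the lines over 16104 genes, but the labels do not say that letters pair libraries. Over all genes, 748 were called by DESeq2 and 237 without the count filter.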
